A study of Oryzias latipes with 6 samples.

Results

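The genes of the muscle thin filament were followed in the trunk tissue of Japanese medaka (Oryzias latipes) larvae that had met the dioxin TCDD as embryos. Members were taken by a rule on gene symbols and not by their values, but with earlier results of these data known. The rule covers troponins C, I and T, numbered tropomyosins, the actins acta and actc, alpha-actinins, nebulin and its relatives, tropomodulins, leiomodins and capping protein. The rule found 41 genes of the 20459 in the authors' deposited table, and no row under the symbols actc or nrap. One of the 41, tnni3k, encodes a kinase that binds troponin I and is no part of the filament.

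Embryos of the TCDD group spent 1 h in 0.3 nM TCDD, starting some 4 hours after fertilization, and those of the DMSO group in 0.1% DMSO. All fish were of the Orange-red Hd-dR strain and were sampled at 20 days post fertilization, when the axial skeleton was freed of head and viscera together with its muscle, fat and dermis. Each group had 3 libraries, each from a pool of 15 to 25 fish. Each gene has 1 FPKM in each group (fragments scaled to transcript length and sequencing depth) in the authors' deposited table, so neither a value per library nor a spread between libraries can be given, and depth is unknown. A gene is called here where the q-value of the authors' own test is under 0.05. The labels do not say whether pools came from separate clutches, so those q-values may leave out the spread between clutches.

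The thin filament is a helix of actin along which tropomyosin lies as a continuous strand, with troponin complexes at regular steps. Troponin C binds calcium, troponin I holds the filament off when calcium is low, and troponin T ties the complex to tropomyosin. Alpha-actinin anchors the barbed end in the Z-disc, where capping protein closes it, tropomodulin closes the pointed end, and nebulin runs along the filament. Fast and slow muscle fibres use different genes for the same subunit, and fish keep several copies of many of them.

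Some of the tested thin filament genes were called lower in TCDD larvae, and none was called higher. The authors' deposited table has a test for 22 of the 41 members, and 6 of these were called lower: the fast troponin I copies TNNI2 (3 of 5) and tnni2a.2, the slow troponin I gene tnni1d, and the tropomyosin genes tpm2, TPM3 and TPM4. Over all 3286 genes tested in the authors' deposited table, 7.46% were called lower and 10.7% higher. No member was called higher in the authors' deposited table, and 0 had an unadjusted p under 0.05 in that direction, against 11 with such a p in all. The share of all tested genes with such a p was not counted, so the 11 have no background beside them. Of the 22 tested members 21 had the lower value in TCDD, 20 after both groups were scaled to equal totals, when neb changed side. Without that scaling, 47.5% of the 3262 tested genes above 0 in both groups had the lower value in TCDD. The log2 fold changes of the tested members, TCDD over DMSO, had a median of -0.80, and those of all tested genes one of 0.05. The scaling shifts each log2 value up by 0.25 and turns the direction of no called member. With q under 0.01, 3 members were lower, against 3.53% of all tested genes, and with q under 0.1, 8 members, against 10.7% of all tested genes.

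**Figure D1:**
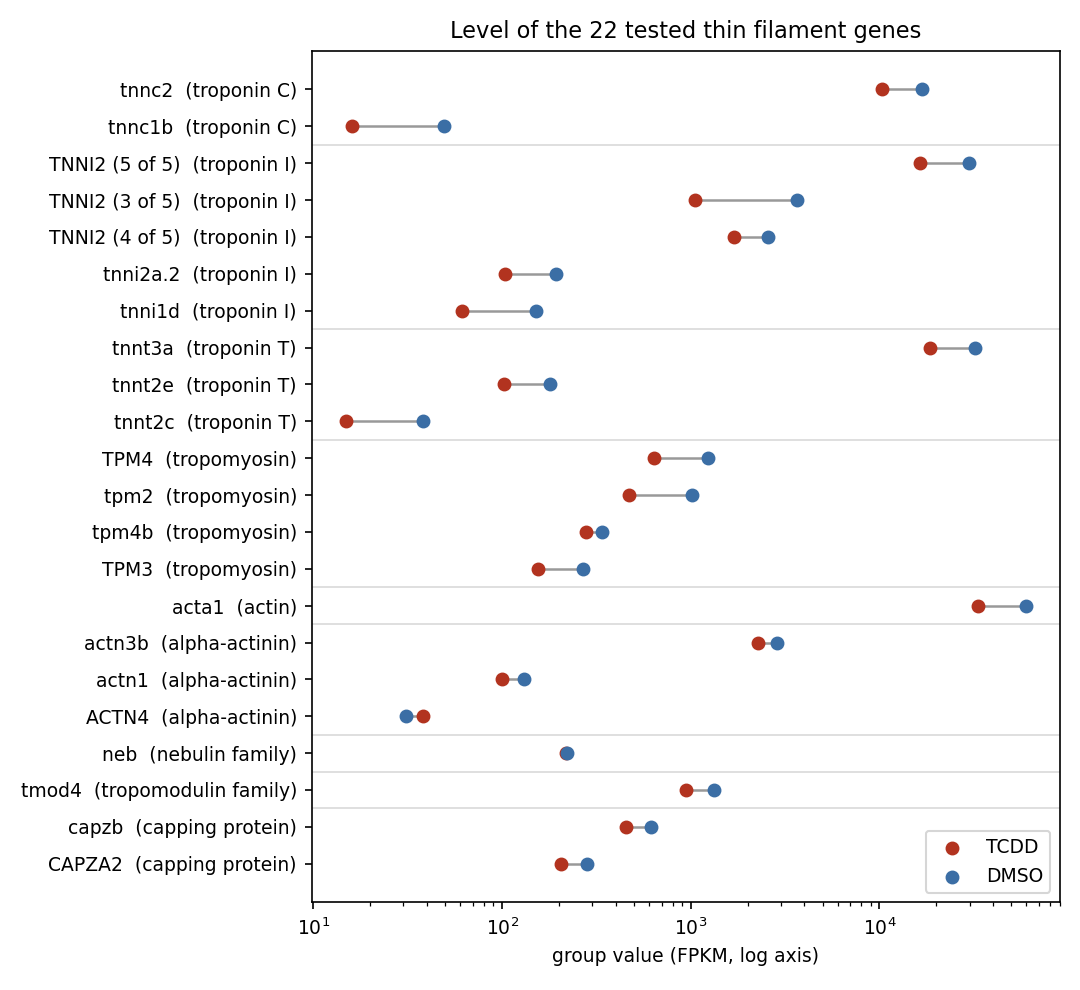
Group values of the 22 tested members in FPKM on a log axis, TCDD in red and DMSO in blue, ordered by role with a grey line joining the values of a gene. Every red point lies left of its blue point except that of ACTN4, with the points of neb almost on top of each other; there are no error bars because there is 1 value per group.

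The 19 untested members were all low, with at most 28.3 FPKM in either group. No gene of the authors' deposited table was tested with less than 27.5 FPKM in its higher group. A weakly expressed gene was thus tested only if it was high in 1 group, and the tested members tnnc1b and tnnt2c stood below that level in TCDD. For that reason the counts over tested members describe those genes and not the whole set. Among the 37 members above 0 in both groups, tested or not, 30 were lower in TCDD (81.1%), with a median log2 fold change of -0.71. Among all 15005 genes above 0 in both groups, 48.6% were lower in TCDD.

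Together the 41 members summed to 87370 FPKM in TCDD and 153647 FPKM in DMSO, which was 7.88% and 11.7% of the group totals. The 4 most abundant, acta1, tnnt3a, TNNI2 (5 of 5) and tnnc2, made up 89.7% of that sum in TCDD and 90.0% in DMSO. Each of these 4 encodes a main fast-muscle or skeletal subunit, and none of them was called. In a bulk tissue, fewer muscle cells and less of a transcript per muscle cell cannot be told apart.

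Troponin C, the calcium sensor, was almost entirely the fast isoform. The fast gene tnnc2 had 10314 FPKM in TCDD and 16881 FPKM in DMSO, a log2 fold change of -0.71 (q = 0.121 in the authors' deposited table). The slow and cardiac gene tnnc1b, on a scaffold that is not placed on a chromosome, had 16.0 FPKM in TCDD and 49.3 FPKM in DMSO (log2 -1.63, q = 0.119 in the authors' deposited table). Neither was called, both having an unadjusted p under 0.05, although the value of tnnc1b in DMSO was 3.09 times that in TCDD. The other slow and cardiac copy, tnnc1a, was untested and stood on the other side, at 8.17 FPKM in TCDD and 3.21 FPKM in DMSO.

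Troponin I, the inhibitory subunit, held 3 of the 6 called members, out of 5 tested, against 7.46% of all tested genes called lower. Its fast form is a row of 5 copies on chromosome 6, between 938233 and 1008387 (no source used here names the genome build), with no other gene of the table between them and gaps of 2197 to 9487 bases. The neighbouring fast troponin T gene tnnt3a follows after 62444 bases, with 2 genes of the table in between. Going along the row, the first copy, tnni2a.1, stood at 9.88 FPKM in TCDD but was listed at 0 in DMSO, and was untested.

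The second copy, tnni2a.2, fell to 103 FPKM in TCDD, against 194 FPKM in DMSO (log2 -0.91, q = 0.0374 in the authors' deposited table). The third, TNNI2 (3 of 5), fell to 1052 FPKM in TCDD, against 3647 FPKM in DMSO (log2 -1.79, q = 0.00105 in the authors' deposited table). It had the largest fold change among the tested members, with a DMSO value 3.47 times that in TCDD. Next to it, TNNI2 (4 of 5) had 1704 FPKM in TCDD and 2581 FPKM in DMSO (log2 -0.60, q = 0.16 in the authors' deposited table). The last and by far the most abundant copy, TNNI2 (5 of 5), had 16451 FPKM in TCDD and 29759 FPKM in DMSO (log2 -0.86), and its q of 0.0542 in the authors' deposited table just missed the threshold.

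The 4 tested copies thus all had the lower value in TCDD, with log2 fold changes from -1.79 to -0.60. Summed over the 5 copies, fast troponin I came to 19320 FPKM in TCDD and 36181 FPKM in DMSO, a log2 fold change of -0.91. TNNI2 (5 of 5) made up 85.2% of that sum in TCDD and 82.3% in DMSO. The share of TNNI2 (3 of 5) was 5.45% in TCDD and 10.1% in DMSO, so that TNNI2 (4 of 5), at 8.82% in TCDD and 7.13% in DMSO, changed places with it. No test of the difference between copies can be made from group values. No source used here says how reads that match several copies were assigned, so values of single copies are less certain than their sum.

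**Figure D2:**
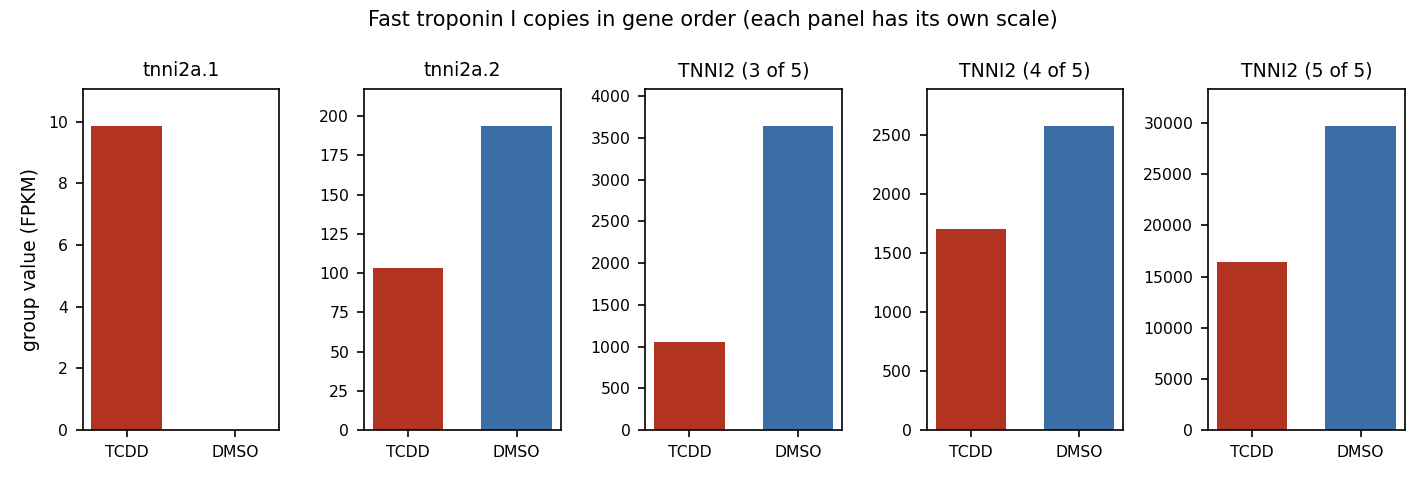
FPKM of the 5 fast troponin I copies in their order along the chromosome, with TCDD (red) left of DMSO (blue); each panel has its own axis from 0. TNNI2 (3 of 5), at 1052 FPKM in TCDD and 3647 FPKM in DMSO, shows the widest gap among the 4 tested copies, and tnni2a.1 alone has a bar in TCDD with none in DMSO.

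Slow troponin I was expressed far lower than the fast form. The slow gene tnni1d fell to 61.6 FPKM in TCDD, against 152 FPKM in DMSO (log2 -1.30, q = 0.00316 in the authors' deposited table). An untested slow gene, tnni1al, had 6.16 FPKM in TCDD and 27.0 FPKM in DMSO. The remaining slow copies tnni1a and tnni1b were listed at 0 in both groups. Slow genes made up 0.350% of all troponin I in TCDD and 0.492% in DMSO.

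Troponin T, the tropomyosin-binding subunit, had no called member, while 2 of its 3 tested genes had an unadjusted p under 0.05. The fast gene tnnt3a had 18418 FPKM in TCDD and 32030 FPKM in DMSO (log2 -0.80, q = 0.154 in the authors' deposited table). Its second copy, TNNT3 (2 of 2), was untested at 19.1 FPKM in TCDD and 25.7 FPKM in DMSO, and its locus is shared with an unnamed gene listed at 0 in both groups.

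Genes of the cardiac-type troponin T2 family were low. The most abundant, tnnt2e, had 103 FPKM in TCDD and 179 FPKM in DMSO (log2 -0.80, q = 0.0893 in the authors' deposited table). For tnnt2c the values were 14.8 FPKM in TCDD and 37.9 FPKM in DMSO (log2 -1.36, q = 0.152 in the authors' deposited table). The untested tnnt2d, which lies 26532 bases from tnni1al on chromosome 6 with 2 genes in between, had 19.1 FPKM in TCDD and 25.4 FPKM in DMSO. Thus a troponin T gene and a troponin I gene stood near each other both at the fast row and here. The slow gene tnnt1 was at 1.65 FPKM in TCDD and 7.98 FPKM in DMSO, and TNNT1 (1 of 2) was listed at 0 in both groups.

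Tropomyosin was the subunit with the largest share of called members, 3 of 4 tested, against 7.46% of all tested genes called lower. In the authors' deposited table tpm2 fell to 472 FPKM in TCDD, against 1020 FPKM in DMSO (log2 -1.11, q = 0.00373). TPM4 fell to 640 FPKM in TCDD, against 1232 FPKM in DMSO (log2 -0.94, q = 0.0211 in the authors' deposited table). TPM3, the slow-fibre tropomyosin gene of mammals, fell to 154 FPKM in TCDD, against 269 FPKM in DMSO (log2 -0.80, q = 0.0427 in the authors' deposited table).

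The copy tpm4b stood apart from TPM4, with 280 FPKM in TCDD and 337 FPKM in DMSO (log2 -0.27, q = 0.563 in the authors' deposited table). TPM4 made up 69.6% of the sum of both in TCDD and 78.5% in DMSO. The difference between these copies was not tested. A further tropomyosin gene, tpma, carries no number and falls outside the rule; it fell to 1254 FPKM in TCDD, against 2953 FPKM in DMSO (log2 -1.24, q = 0.00105 in the authors' deposited table), and with it the tropomyosins summed to 2801 FPKM in TCDD and 5812 FPKM in DMSO.

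Actin was carried by acta1, the skeletal muscle alpha-actin, which was the most abundant member. It had 33214 FPKM in TCDD and 59588 FPKM in DMSO (log2 -0.84), and it was not called (q = 0.216 in the authors' deposited table). The smooth muscle actin acta2 was untested, at 7.15 FPKM in TCDD and 28.3 FPKM in DMSO. Over the 6 smooth muscle markers other than acta2, among them tagln, cnn1b and myh11a, the summed level was 174 FPKM in TCDD and 181 FPKM in DMSO, with 0 of 2 tested called. That sum hides markers on both sides. The most abundant, tagln, had 112 FPKM in TCDD and 139 FPKM in DMSO, and myh11a and smtnb were also lower in TCDD. On the other side, desmb had 36.8 FPKM in TCDD and 22.9 FPKM in DMSO. The untested cnn1b had 10.5 FPKM in TCDD and 1.89 FPKM in DMSO, and myh11b was also higher in TCDD. The part of these 6 markers in the value of acta2 was not tested.

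A further 3 rows named OLMA1, the symbol of a medaka muscle actin, also fall outside the rule. All of them were called lower in the authors' deposited table, against 7.46% of all tested genes. Like tpma, they were looked up with earlier results of these data known. They fell to 61.9, 186 and 392 FPKM in TCDD, against 698, 325 and 872 FPKM in DMSO (log2 -3.50, -0.81 and -1.15, with q = 0.00105, 0.0479 and 0.00427 in the authors' deposited table). Summed, these rows came to 1.93% of the level of acta1 in TCDD and 3.18% in DMSO. Actin genes are close to identical in their coding sequence, so reads could be shared between acta1, acta2 and these rows.

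**Figure D3:**
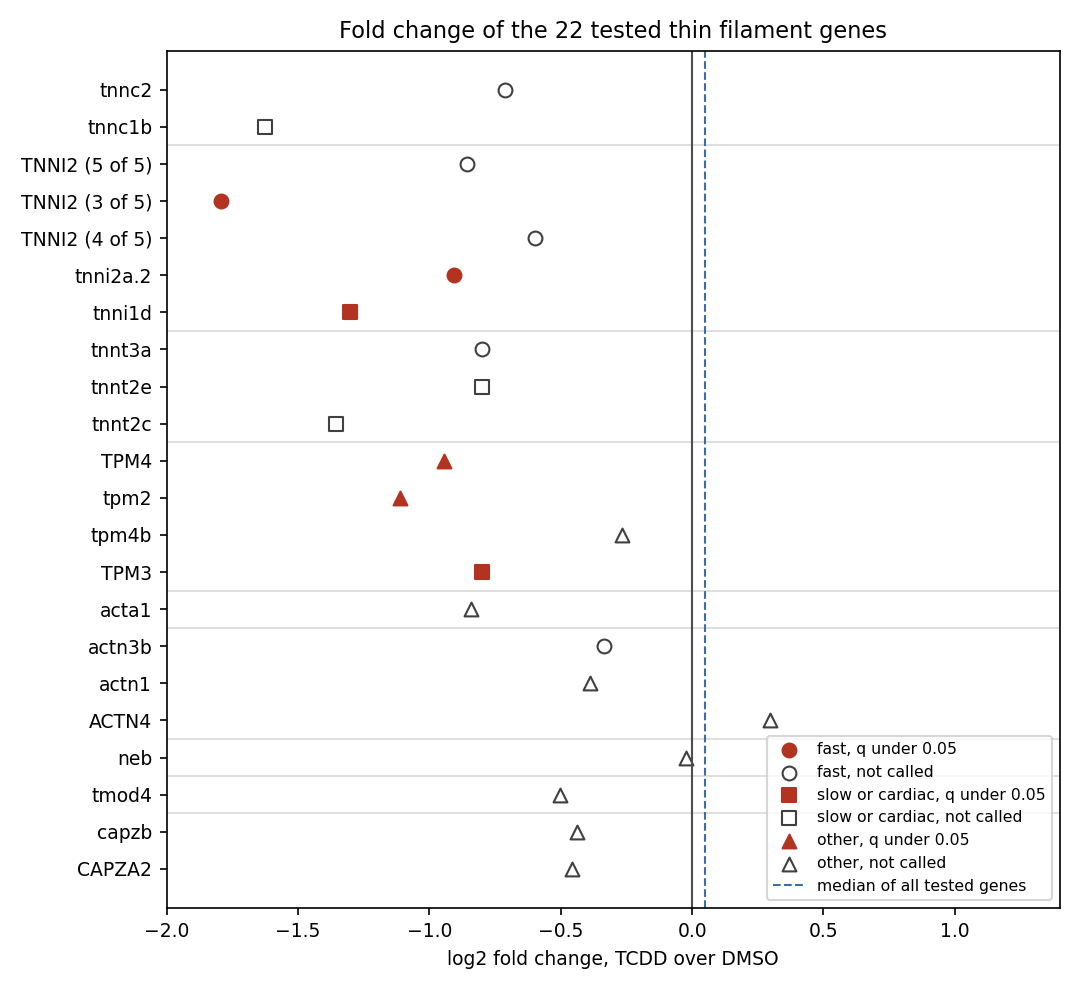
Log2 fold changes (TCDD over DMSO) of the 22 tested members, ordered by role, with filled red markers for the 6 called genes; circles are fast, squares slow or cardiac and triangles other genes. ACTN4 is the 1 member right of 0, and the dashed line is the median of all tested genes at 0.05.

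Of the genes that anchor, span and close the filament, 7 were tested, and none of these was called or had an unadjusted p under 0.05. Over all tested genes 7.46% were called lower and 10.7% higher in the authors' deposited table, so few calls would be looked for among 7 genes. The fast alpha-actinin gene actn3b had 2277 FPKM in TCDD and 2877 FPKM in DMSO (log2 -0.34, q = 0.49 in the authors' deposited table). The alpha-actinins of non-muscle cells pointed in different directions: actn1 had 100 FPKM in TCDD and 131 FPKM in DMSO, and ACTN4 had 38.0 FPKM in TCDD and 31.0 FPKM in DMSO (q = 0.366 and 0.537 in the authors' deposited table). The giant ruler protein gene neb had 217 FPKM in TCDD and 221 FPKM in DMSO (log2 -0.02, q = 0.963 in the authors' deposited table).

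At the pointed end, the skeletal muscle tropomodulin gene tmod4 had 941 FPKM in TCDD and 1335 FPKM in DMSO (log2 -0.50, q = 0.216 in the authors' deposited table). The capping protein subunit genes capzb and CAPZA2 had 455 and 205 FPKM in TCDD, against 617 and 282 FPKM in DMSO (q = 0.327 and 0.263 in the authors' deposited table). The untested subunit copies capza1a and capza1b were at 15.7 and 16.4 FPKM in TCDD and at 13.2 and 15.6 FPKM in DMSO. Of the other low members, lmod2b and NEBL had 4.31 and 6.64 FPKM in TCDD and 11.1 and 12.1 FPKM in DMSO, while tmod2, LMOD1 and ACTN2 had 10.1, 2.25 and 8.55 FPKM in TCDD and 8.91, 2.05 and 6.76 FPKM in DMSO. TNNT2 had 1.32 FPKM in TCDD and 1.51 FPKM in DMSO, and tnni3k had 1.88 FPKM in TCDD and 7.02 FPKM in DMSO.

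Some fast and some slow isoforms were called lower in TCDD, against 7.46% of all tested genes in the authors' deposited table. The fast genes (troponins C2, I2 and T3 and actn3b) were 9 members, of which 7 were tested and 2 called lower, with a median log2 fold change of -0.80 over those tested. The slow and cardiac genes (troponins C1, I1, T1 and T2 and TPM3) were 13 members, of which 5 were tested and 2 called lower, with a median of -1.30. That median rests partly on tnnc1b and tnnt2c, tested through their DMSO values, and was -0.80 over the members with a mean of at least 50 FPKM. No test sets the isoform groups against each other. Summed over each group, fast isoforms came to 50349 FPKM in TCDD and 87995 FPKM in DMSO (log2 -0.81), and slow and cardiac isoforms to 386 FPKM in TCDD and 752 FPKM in DMSO (log2 -0.96).

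Other markers of slow fibres and of heart muscle were read beside the slow and cardiac isoforms. The slow-fibre list held smyhc3, SOX6A and SOX6B, and only smyhc3 is read here as a marker of slow fibres. The slow myosin gene smyhc3, the 1 tested, had 86.0 FPKM in TCDD and 112 FPKM in DMSO. It was not called (q = 0.391 in the authors' deposited table). The untested SOX6A and SOX6B had 7.62 and 4.03 FPKM in TCDD and 17.2 and 6.11 FPKM in DMSO, and are not read as slow-fibre markers. The 7 rows of the heart list summed to 157 FPKM in TCDD and 207 FPKM in DMSO. Nearly all of it was the ventricular myosin row VMHC at 140 FPKM in TCDD and 188 FPKM in DMSO. VMHC was not called (q = 0.306 in the authors' deposited table). A second, untested row, vmhc, had 13.8 FPKM in TCDD and 13.5 FPKM in DMSO. Of the defining heart genes, tbx5a and BNP were at 0 in both groups, gata4 was at 0 in TCDD and nkx2.5 at 0 in DMSO, while hand2 was above 0 in both, at 1.80 FPKM in TCDD and 4.17 FPKM in DMSO. The part of these cells in the slow and cardiac isoforms was not tested.

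The proportions of the subunits were read from levels scaled by transcript length. On that scale summed troponin I stood at 1.88 times summed troponin C in TCDD and at 2.15 times in DMSO. Summed troponin T was 1.80 times troponin C in TCDD and 1.91 times in DMSO. Summed actin, acta1 and acta2 without the OLMA1 rows, was 3.21 times troponin C in TCDD and 3.52 times in DMSO. Summed tropomyosin, without tpma, was 0.1495 times troponin C in TCDD and 0.1688 times in DMSO. The tpma left out made up 44.8% of all tropomyosin in TCDD and 50.8% in DMSO, so the tropomyosin ratios are too low. All these ratios to troponin C have no error, because each comes from 1 value per group.

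Members with similar fold changes fell on both sides of the threshold. TPM3, with a mean of 212 FPKM, was called at a log2 fold change of -0.80, whereas acta1 at -0.84 and tnnt3a at -0.80 were not. Among the 8 members with a mean of at least 1000 FPKM all 8 were lower in TCDD and 1 was called. Of all 128 tested genes of such abundance, the 8 members included, 63.3% were lower in TCDD and 9.38% called lower. Their median log2 fold change was -0.20, against -0.75 for the 8 members. Among the 14 less abundant tested members 5 were called, against 7.46% called lower of all tested genes of any abundance. The log2 fold change divided by the authors' deposited test statistic was 0.84 for acta1 and 0.43 for TPM3. It was 0.36 for TNNI2 (5 of 5), with a median of 0.55 over 3262 tested genes of the authors' deposited table. Such a ratio would act as a standard error if the statistic is a change over its error. The calls did not always follow the size of that statistic. TPM3 was called at a statistic of -1.88, whereas TNNI2 (5 of 5) was not called at -2.35. The ratio is thus not read as the error behind the calls.

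**Figure D4:**
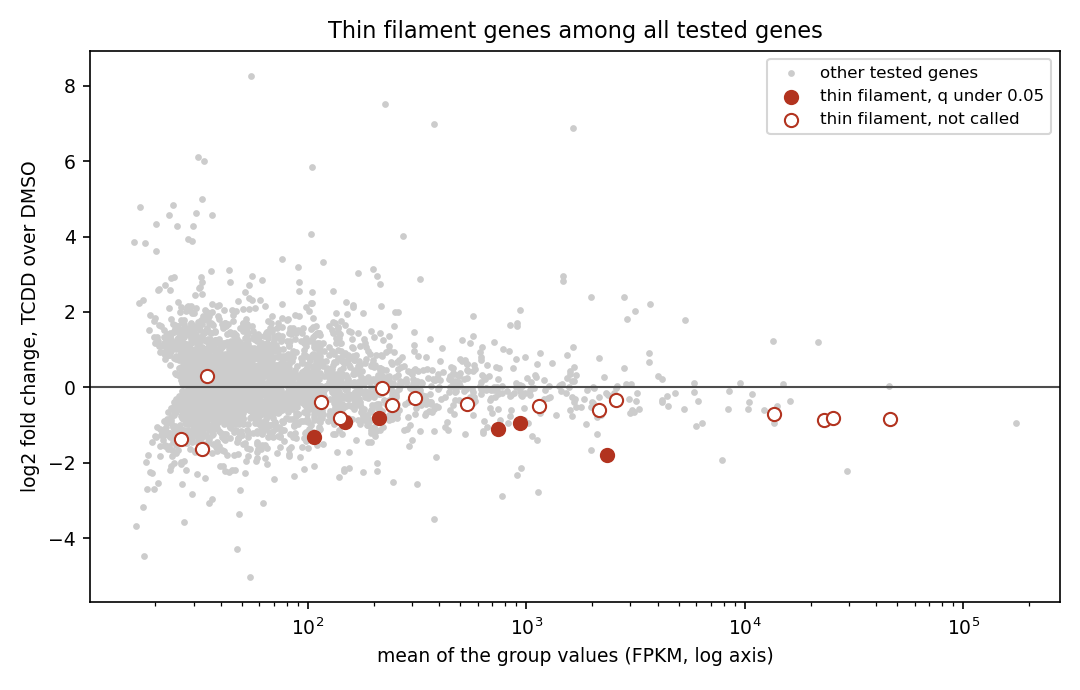
Log2 fold changes (TCDD over DMSO) against the mean of both group values in FPKM (log axis) for the 22 tested members (red) and the other tested genes (grey); filled points are called. The 8 members at a mean of 1000 FPKM or more all lie below 0 and 1 of them is filled, and the grey cloud is hollow around 0 at the lowest means, where genes were tested only if 1 group was high.

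Thick filament and calcium-handling genes were read beside the thin filament. Over all tested genes 7.46% were called lower and 10.7% higher in the authors' deposited table. Of 14 tested thick filament genes 4 were called lower and 0 higher in the authors' deposited table, with a median log2 fold change of -0.57. The myosin-binding protein genes mybpc2b and mybphb fell to 61.7 and 622 FPKM in TCDD, against 174 and 1628 FPKM in DMSO (both q = 0.00105 in the authors' deposited table). The gene mylpfa fell to 3299 FPKM in TCDD, against 12477 FPKM in DMSO (log2 -1.92, q = 0.00105 in the authors' deposited table). Its more abundant copy mylpfb was not called, at 14089 FPKM in TCDD and 17987 FPKM in DMSO (log2 -0.35, q = 0.477 in the authors' deposited table). Of 13 tested calcium-handling genes, 3 were called lower and 0 higher in the authors' deposited table, with a median of -0.72. The storage protein gene casq1a and the junction gene jph1a were among them, at 433 and 58.3 FPKM in TCDD and 894 and 135 FPKM in DMSO (q = 0.0053 and 0.00316 in the authors' deposited table). The parvalbumin gene pvalb4 fell to 10465 FPKM in TCDD, against 48170 FPKM in DMSO (log2 -2.20, q = 0.00105 in the authors' deposited table).

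Actin turnover genes such as cofilins and profilins gave a median of -0.11 over 14 tested genes. None of these was called lower, 1 having an unadjusted p under 0.05 in that direction, and 1 was called higher in the authors' deposited table, the twinfilin gene TWF2 (1 of 2), at 77.0 FPKM in TCDD and 24.0 FPKM in DMSO (q = 0.00427). No test of a difference between the lists was made.

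**Figure D5:**
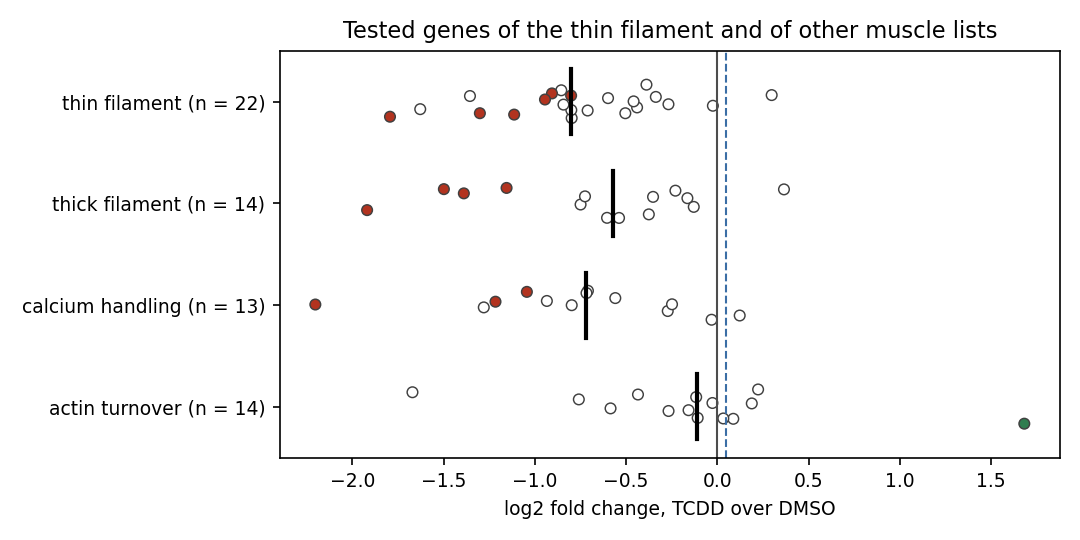
Log2 fold changes (TCDD over DMSO) of every tested gene in the thin filament set and in the thick filament, calcium-handling and actin turnover lists; red points were called lower, the green point higher, black bars are medians and the dashed line is the median of all tested genes. The medians are -0.80, -0.57, -0.72 and -0.11 in that order.

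Skeletal muscle markers were abundant, as the tissue label says, and they did not move as one. The creatine kinase genes ckma and ckmb had 15386 and 46478 FPKM in TCDD and 14434 and 44944 FPKM in DMSO, and neither was called (q = 0.876 and 0.927 in the authors' deposited table). Of 6 tested skeletal muscle markers in the authors' deposited table, 3 were called lower: pvalb4, mylpfa and myog, the last a transcription factor of muscle differentiation, at 45.0 FPKM in TCDD and 96.8 FPKM in DMSO (q = 0.0349). Over all tested genes 7.46% were called lower. The rows pvalb4 and mylpfa are those already counted among the calcium-handling and thick filament genes. The summed level of the 7 markers was 195140 FPKM in TCDD and 348379 FPKM in DMSO, most of it the parvalbumin gene pvalb1 at 119442 FPKM in TCDD and 228225 FPKM in DMSO. Without pvalb1 and pvalb4 the other 5 markers summed to 65234 FPKM in TCDD and 71984 FPKM in DMSO. Most of that sum was ckma and ckmb, both slightly higher in TCDD. Within it, mylpfa had 3299 FPKM in TCDD and 12477 FPKM in DMSO (q = 0.00105 in the authors' deposited table). What these markers have to do with the values of the thin filament genes was not tested.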

How the data were processed

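RNA was sequenced on the Ion Torrent PGM, with 3 pooled libraries per group. Per the submitters' processing notes Bowtie2 2.2.6 and DESeq2 were used, with no role given for either; per the file headers, the table has the layout Cuffdiff writes for genes. No source used here names the genome build or annotation. The authors deposited 1 FPKM value per gene and group, read as FPKM from that layout, with a test statistic (the authors' deposited score) and the authors' deposited p-value and q-value. Depth per library is unknown, and no test across samples could be run, so calls are the authors' own, at q under 0.05.

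Log2 fold changes of TCDD over DMSO were recomputed from the group values without a pseudocount. Medians, sums over copies and counts were taken with Python 3.11.15, pandas 2.3.3 and numpy 2.4.6, and the fold change and adjustment steps were tested on simulated data. Recomputed Benjamini-Hochberg values differed from the deposited q-values by at most 5.11e-07.

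Members, isoform lists and other lists were chosen with earlier results of these data known. Every tested member and every untested member with a mean of at least 10 FPKM was to be named; the remaining low members, and the genes of the marker lists, were named after their values were seen. From other lists at most 3 members with the smallest q were named, and mylpfb was added beside its copy mylpfa. The kinase gene tnni3k, untested, was kept out of the slow list although its symbol matches. MYOD, nkx2.5 and BNP were matched as other spellings of marker symbols. A RefSeq table of gene names has none of the Ensembl identifiers of these genes and was left aside.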

Additional observations from a re-analysis of the deposited data

Results flagged for a closer look

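Among the 19 untested members, 2 had a level in TCDD at least 2 times that in DMSO, outside the authors' test, and 5 (acta2, lmod2b, tnni1al, tnni3k and tnnt1) had a level in DMSO at least 2 times that in TCDD. The first fast troponin I copy of the chromosome 6 row, tnni2a.1, stood at 9.88 FPKM in TCDD but was listed at 0 in DMSO, opposite to the other 4 copies of the row. The slow and cardiac troponin C gene tnnc1a had 8.17 FPKM in TCDD and 3.21 FPKM in DMSO, opposite to tnnc1b. Neither difference was tested, and both values lie below the 27.5 FPKM that every tested gene of the authors' deposited table reached in its higher group.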

How the results depend on the processing

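No paired analysis was possible because only group values, and none of single libraries, were analysed; leaving out replicates could not be run for the same reason. At q under 0.01, 3 members were called lower, and at q under 0.10 there were 8. The 6 called members also all had a mean of at least 50 FPKM. Medians are given next for tested members, fast isoforms, and slow and cardiac isoforms, in that order. They were -0.55, -0.55 and -1.06 at equal totals, and -0.71, -0.71 and -1.22 at equal totals without the parvalbumin genes. Centred on the median tested gene they were -0.85, -0.85 and -1.35, and over all members above 0 in both groups -0.71, -0.75 and -1.05. With 1 FPKM added the slow and cardiac median was -1.29, and at a mean of at least 50 FPKM it was -0.80, over fewer genes. With the deposited fold change of tnnt3a, a setting chosen after seeing the data, the medians of tested members and of fast isoforms were -0.77 and -0.73. Summed fast troponin I gave -0.66, -0.82 and -0.95 under the 3 scalings and -1.16 without TNNI2 (5 of 5). The sum over tnnc1 copies reversed without tnnc1b, to 1.35, since tnnc1a alone was left.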

Other observations

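One value of the authors' deposited table does not match itself, and it belongs to the most abundant troponin gene. Of 15005 genes with a readable fold change, only tnnt3a had a deposited log2 fold change that differed from the one recomputed from its group values by more than 0.001. The authors' deposited table gives it as -0.73, while the values 18418 FPKM in TCDD and 32030 FPKM in DMSO give -0.80. The deposited fold change would need 19297 FPKM in TCDD, or else 30571 FPKM in DMSO. Which of the cells is in error cannot be settled from the table, and tnnt3a was not called (q = 0.154 in the authors' deposited table).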
